A study of Mus musculus with 22 samples.

Results

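H3K27ac at autosomal regulatory elements was compared between Kupffer cells of A/J and C57BL/6J mice, 2 inbred strains. The members are the 58794 windows with a mean normalized count over 16 across both strains, of 94171 autosomal windows and 96381 in all. Each window spans 1000 bp around a merged ATAC-seq peak. Kupffer cells are the resident macrophages of the liver and were sorted from livers of male mice 8 to 12 weeks of age in the control condition. Flavopiridol, an inhibitor of transcription, was present while the liver was digested. There were 3 H3K27ac libraries from A/J and 3 from C57BL/6J. Another 3 from BALB/cJ, also an inbred strain, entered the fit to share 1 estimate of the spread. No source used here states that each library came from 1 animal, so p-values measure the spread between libraries.

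H3K27ac, acetylation of lysine 27 of histone H3, is laid down by the acetyltransferases p300 and CBP at active promoters and enhancers, and its level follows the activity of nearby genes. In Kupffer cells the macrophage factor PU.1 opens most enhancers together with partners such as MAF, AP-1 and LXRα. Notch, BMP and TGF-β signals of the sinusoid maintain the identity of these cells. Inbred strains differ at many enhancers, and each strain carries its own haplotypes at immune gene clusters.

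Library depth in windows ranged from 2291426 to 12980348 tags over the 6 libraries, with replicate 2 of each strain the shallowest. The biological coefficient of variation between libraries of a strain was 0.213. The cells carried acetylation near the start sites of Kupffer cell genes in both strains, with mean normalized counts of 319 in A/J and 365 in C57BL/6J at *Spic*, 145 and 191 at *Timd4*, 132 and 150.0 at *Adgre1* and 78.3 and 114 at *Clec4f*. *Marco* was low in both, at 24.2 and 27.4. Among genes of other cells, the window nearest the start site held 5.00 and 2.96 at the endothelial gene *Kdr* (73 bp away). It held 5.74 and 7.31 at the hepatocyte gene *Hnf4a* and 2.86 and 2.41 at the neutrophil gene *S100a9*, but lay 9760 and 14509 bp away. Some others held more, with 14.5 and 16.6 at *S100a8* (24 bp), 24.2 and 15.9 at *Zbtb46* (28 bp) and 21.9 and 44.3 at *Ccr2* (1226 bp). At *Ttr* (14017 bp) the counts were 23.8 and 26.6. The nearest window held 44.2 and 44.4 at *Pecam1*, also expressed by leukocytes, and 112 and 162 at *Xcr1*, a dendritic cell receptor gene. *Lrat*, *Des*, *Pax5*, *Cd3e* and *Mpo* had no autosomal window in the table, and neither did the X-linked Kupffer cell gene *Vsig4*.

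The sequences at the centers of 6 windows that the results below turn on are given first, to show elements with more acetylation in one strain than in the other. Each is 200 bases of the plus strand of GRCm38.p6, the C57BL/6J reference, taken from RefSeq. None overlaps an annotated exon. Capitals mark matches to the motifs searched. The first 4 lie in windows with more H3K27ac in A/J, near the MHC class II gene *H2-Ea-ps*, in the first intron of the myeloid receptor gene *Cd300e*, in an intron of the eotaxin receptor gene *Ccr3* and in an intron of the TGF-β receptor gene *Tgfbr2*. The last 2 lie in windows with more in C57BL/6J, upstream of the Kupffer cell gene *Cd5l* and in an intron of the leptin receptor gene *Lepr*.
H2-Ea-ps, chr17:34346237-34346436: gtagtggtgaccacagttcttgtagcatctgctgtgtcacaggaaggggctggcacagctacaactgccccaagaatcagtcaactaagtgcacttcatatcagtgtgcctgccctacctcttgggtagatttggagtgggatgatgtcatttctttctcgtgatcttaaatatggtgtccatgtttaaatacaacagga
Cd300e, chr11:115058806-115059005: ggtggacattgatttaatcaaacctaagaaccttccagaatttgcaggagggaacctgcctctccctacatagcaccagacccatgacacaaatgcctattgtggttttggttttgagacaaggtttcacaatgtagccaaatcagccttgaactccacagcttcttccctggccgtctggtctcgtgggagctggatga
Ccr3, chr9:124023113-124023312: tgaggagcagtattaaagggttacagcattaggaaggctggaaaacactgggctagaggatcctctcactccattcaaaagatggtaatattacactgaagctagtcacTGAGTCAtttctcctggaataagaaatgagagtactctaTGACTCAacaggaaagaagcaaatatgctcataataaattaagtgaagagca
Tgfbr2, chr9:116156633-116156832: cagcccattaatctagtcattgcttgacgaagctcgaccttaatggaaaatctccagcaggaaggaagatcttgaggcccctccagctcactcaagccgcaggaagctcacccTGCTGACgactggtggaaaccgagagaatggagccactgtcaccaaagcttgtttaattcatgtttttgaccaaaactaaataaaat
Cd5l, chr3:87329336-87329535: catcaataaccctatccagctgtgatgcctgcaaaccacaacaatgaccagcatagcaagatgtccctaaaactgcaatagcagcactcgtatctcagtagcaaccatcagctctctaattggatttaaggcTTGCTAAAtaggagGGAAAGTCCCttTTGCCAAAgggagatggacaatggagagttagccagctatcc
Lepr, chr4:101742117-101742316: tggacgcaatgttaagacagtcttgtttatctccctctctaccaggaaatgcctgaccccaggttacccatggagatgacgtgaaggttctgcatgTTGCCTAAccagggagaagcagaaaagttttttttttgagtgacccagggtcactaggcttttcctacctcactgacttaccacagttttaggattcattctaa
The *Ccr3* element held 2 AP-1 matches, the *Tgfbr2* element 1 MAF match and the *Lepr* element 1 C/EBP match. The *Cd5l* element held 2 C/EBP matches and 1 NF-κB match. The other 2 held none of the motifs marked.

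Of the 58794 windows, 4311 (7.33%) differed between the strains by more than 2-fold with an adjusted p (Benjamini-Hochberg) below 0.05 in edgeR's quasi-likelihood test, and are referred to as called, toward the strain with more acetylation. Acetylation was higher in A/J in 1820 (3.10%), and in 2491 (4.24%) it was higher in C57BL/6J. At any fold 5147 windows (8.75%) passed the adjusted test, and 11522 (19.6%) had an unadjusted p under 0.05. Without C57BL/6J replicate 3 the total was 2869, with 1606 higher in C57BL/6J. The 3 libraries of one strain did not overlap those of the other in 4118 of the called windows (7.00% of all tested), and in 13076 windows (22.2%) whether called or not. At the called windows the median absolute log2 fold change was 1.69, against 0.28 over all windows. The strain with less acetylation had a median of 17.2 normalized counts there, and the strain with more 64.9. The difference was over 4-fold in 655 called windows higher in A/J (1.11%) and in 917 higher in C57BL/6J (1.56%). A difference over 8-fold was seen in 291 called windows higher in A/J (0.495%) and in 406 higher in C57BL/6J (0.691%). Over all windows the median log2 fold change of A/J over C57BL/6J was -0.02. Reads of A/J were mapped to mm10 carrying small A/J variants but no larger structural variants, and those of C57BL/6J to mm10 itself. Windows with similar input had at least 3 input counts in each strain and a ratio within 2-fold. Among these, 1307 were higher in A/J and 1686 higher in C57BL/6J. The part of mapping in the counts was not tested.

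**Figure D1:**
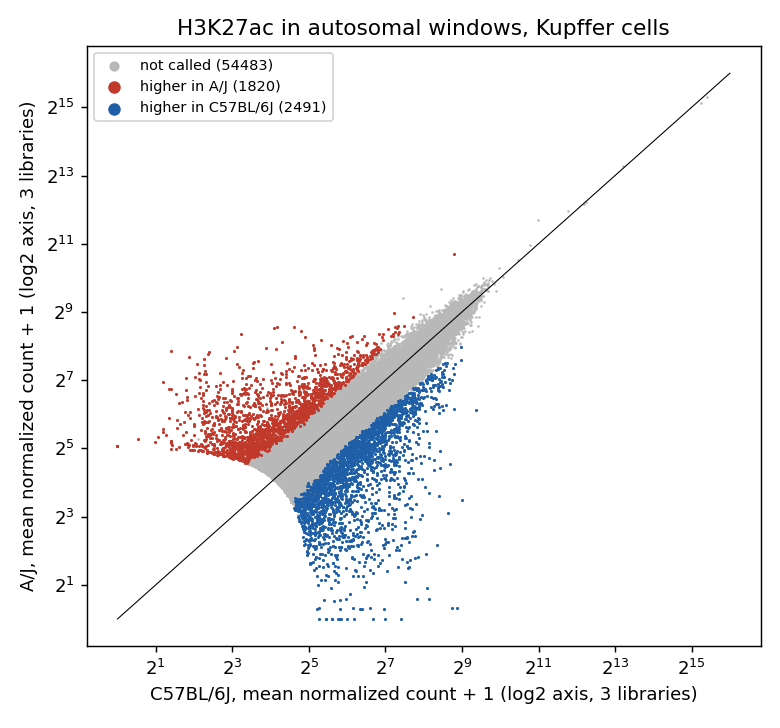
Mean normalized H3K27ac count plus 1 of each of 58794 windows in C57BL/6J (x axis) and A/J (y axis), each the mean of 3 libraries on a log2 axis; red and blue points are the 1820 windows toward A/J and the 2491 higher in C57BL/6J, gray points the 54483 not called, and the line marks equality. Called windows form a wing on either side, and 1 of them, at the *Btbd9* promoter, has a mean count over 512.

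Distal elements were called more often than promoters. Of 12152 windows annotated as promoters, 357 (2.94%) were called, 158 higher in A/J (1.30%) and 199 higher in C57BL/6J (1.64%). The share was 7.52% of 26395 intronic and 10.5% of 16176 intergenic windows. It rose from 2.70% within 500 bp of a start site to 10.7% between 20000 and 50000 bp. Promoters also had more acetylation, with a median mean count of 141 against 54.2 between genes, and the share called fell with level. It was 11.6% at a mean count of 16 to 32 and 0.355% at 256 to 512. The parts of level and position in these shares were not separated.

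Where only one of the strains had an ATAC-seq peak, the called difference nearly always favored the strain with the peak. The table lists the peak sets in which each peak was found, which come from another assay and were not used to call a window. Of 3352 windows with a control peak in A/J and none in C57BL/6J, 608 were called toward A/J and 25 toward C57BL/6J. Of 5633 windows with a peak in C57BL/6J and none in A/J, 42 were called toward A/J and 1088 toward C57BL/6J. At 39777 windows with a peak in both, 4.68% were called, 826 toward A/J and 1036 toward C57BL/6J. These windows with shared peaks made up 45.4% of the windows toward A/J and 41.6% of those higher in C57BL/6J.

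**Figure D2:**
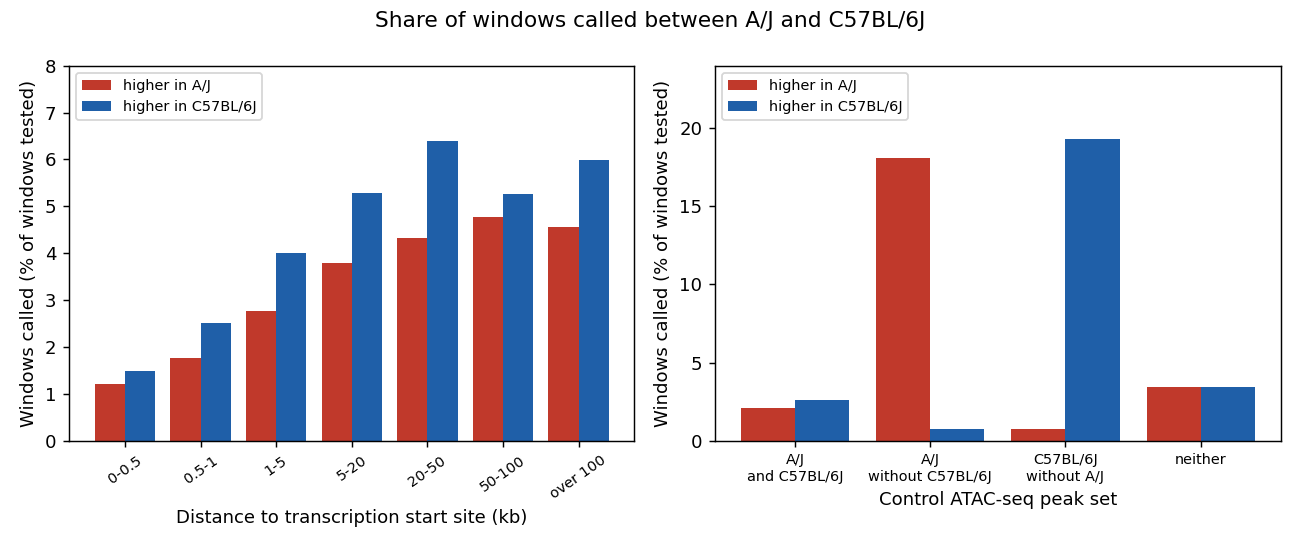
Share of tested windows called toward A/J (red) or C57BL/6J (blue), by distance to the nearest transcription start site in kb (left) and by the strain in which a control ATAC-seq peak was found (right); bars start at 0. The share within 0.5 kb of a start site was 1.21% and 1.48%, and with an A/J peak alone it was 18.1% and 0.746%.

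Neighboring elements differed together. For pairs of windows whose starts lay 1000 to 2000 bp apart, 493 of 495 pairs with both called had the same direction, and the correlation of their log2 fold changes was 0.67 over 16353 pairs. At 200000 to 500000 bp, 290 of 495 pairs had the same direction (58.6%) and the correlation was 0.03 over 47638 pairs. These are descriptions across windows of the same libraries, and windows less than 1000 bp apart overlap. Of 991 genes with at least 2 called windows, 878 had all of them in 1 direction, 336 toward A/J and 542 toward C57BL/6J. At 312 genes a promoter window was called. The other tested windows of these genes numbered 1037, of which 423 (40.8%, against 7.33% of all windows) were called, 399 of them in the direction of the promoter. Windows of a gene were taken at any distance, also where they overlap and count the same tags. Part of the agreement within genes is thus fixed in advance.

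The longest run of neighboring windows called in 1 direction held 18 windows over 46 kb at *Kcna2* and *Kcna10*, potassium channel genes on chromosome 3. Their summed normalized counts were 520.1, 767 and 496 in A/J and 2266, 1379 and 2474 in C57BL/6J, and the BALB/cJ mean was 1178. All 3 C57BL/6J libraries were above all 3 of A/J, with the lowest C57BL/6J value in the shallow replicate 2. At *Gsr*, which encodes the enzyme that regenerates reduced glutathione, 14 of 14 windows over 23 kb were higher in C57BL/6J. The sums there were 496, 594 and 554 in A/J and 2451, 2369.5 and 2885 in C57BL/6J. A window in an intron of *Gsr* had 35.4, 26.5 and 25.9 normalized counts in A/J and 340.1, 219 and 475 in C57BL/6J, a log2 fold change of -3.55 (SE 0.30, adjusted p = 4.3e-09 by edgeR).

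Runs toward A/J lay at other genes. At *Elk3*, an ETS-family repressor, and its neighbor *Gm17745*, 12 windows over 68 kb summed to 882, 970.1 and 911 in A/J and 148, 159 and 152 in C57BL/6J. Runs of 10 windows lay at the ubiquitin ligase gene *Lnx2*, the kinase anchoring protein gene *Akap13*, the death receptor gene *Tnfrsf21*, the calcium channel gene *Cacna1a* with *Ier2*, and *Clmp* with the chaperone gene *Hspa8*. Their median log2 fold changes were 3.07, 2.71, 1.58, 5.67 and 4.42. A run of 11 windows toward C57BL/6J, over 173 kb at the ankyrin gene *Ank2*, had a median of -4.22, with sums of 84.0, 97.0 and 42.8 in A/J and 954, 584 and 1049.6 in C57BL/6J. In all there were 110 runs of at least 5 windows.

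The called windows were spread unevenly along the chromosomes. In 385 bins of 5 Mb with at least 50 tested windows, the share called had a median of 6.01% and ran from 0, in 15 bins, to 53.4%. The highest share was on chromosome 8 between 40 and 45 Mb, where 28 of 58 windows were higher in C57BL/6J and 3 higher in A/J. The phosphoinositide phosphatase gene *Mtmr7* held 6 of the 28 and the acid ceramidase gene *Asah1* held 4. In the next bin, 45 to 50 Mb, none of 140 windows was called. The bin with *Gsr*, 30 to 35 Mb on the same chromosome, had 27 of 65 higher in C57BL/6J and 1 higher in A/J. On chromosome 12 between 35 and 40 Mb, which holds *Tspan13*, 21 of 97 windows were higher in A/J and 2 higher in C57BL/6J. By chromosome the share ran from 4.61% on 16 to 9.94% on 3.

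**Figure D3:**
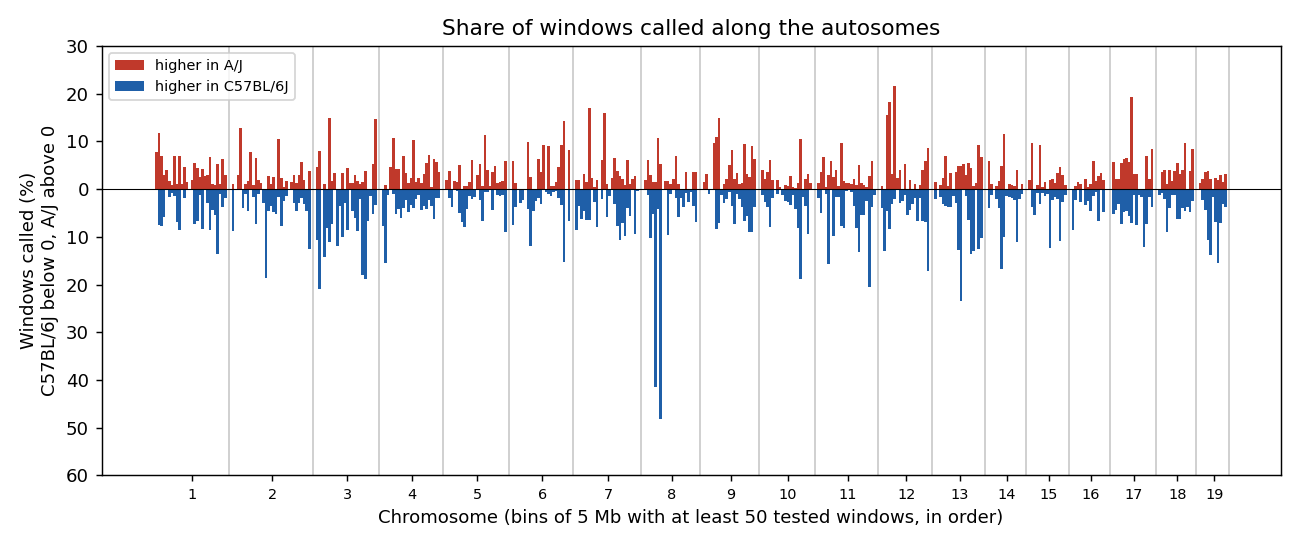
Percent of tested windows called higher in A/J (red, above 0) and higher in C57BL/6J (blue, below 0) in 385 bins of 5 Mb along the 19 autosomes, in order of position; bins under 50 windows are left out. A pair of bins on chromosome 8 reach furthest toward C57BL/6J, and the bin after the second of them has no bar in either direction.

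Some single windows held almost all of their acetylation in one strain. In A/J, a window in the intergenic region upstream of *Myo10*, an unconventional myosin, had 263, 156 and 256 against 5.33, 2.31 and 5.06 in C57BL/6J, with a log2 fold change of 5.59 (SE 0.41, adjusted p = 5.2e-10 by edgeR), and it lay among 11 called windows of this gene. *Arl15*, a small GTPase gene, and *Dpy19l3* and *Pigv*, mannosyltransferase genes, had windows with log2 fold changes of 5.49, 5.02 and 4.47. A window 9263 bp upstream of *Ifnar1*, a subunit of the type I interferon receptor, had 326, 209 and 159 against 9.34, 6.93 and 5.69. At the promoter of *Spry1*, an inhibitor of receptor tyrosine kinase signaling, the counts were 148, 106 and 137 against 14.7, 9.24 and 15.2. The promoter of *Inpp4b*, a phosphoinositide phosphatase gene, had 129.6, 147 and 113 against 14.7, 27.7 and 12. In all of these the strains did not overlap, as in 22.2% of all windows. The naming rule required this of windows picked outside the gene lists, so it adds no support.

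Among the windows higher in C57BL/6J, *Trmt61a*, a tRNA methyltransferase gene, had 192, 194 and 205 in an intergenic window against 0.737, 2.94 and 1.94 in A/J, a log2 fold change of -6.88 (SE 0.38, adjusted p = 1.6e-11 by edgeR). The tight-junction gene *Cldn14* had 397, 337 and 503 against 26.5, 20.6 and 20.1. At the promoter of the kinase gene *Akt2* the counts were 121, 187 and 172 against 13.3, 8.82 and 13. The promoters of *Rfesd*, *Nub1* and *Isoc2b* had log2 fold changes of -3.16, -2.66 and -2.68. In 13 called windows A/J had no H3K27ac count in any library, and in 10 of these no A/J input count either. For *Lilra5* and *Ifi213* the fold is therefore only a lower bound against a floor of 3 counts over the 3 libraries, at least 40.6-fold and 57.1-fold higher in C57BL/6J, and the A/J input, in which 9.09 and 21.2 counts would match the C57BL/6J input by library totals, had 0. Each such expected value scales a few counts of the 1 C57BL/6J input library, of 583518 tags in windows, to the 3 A/J input libraries, 1.5 and 3.5 counts in these windows, and is imprecise. Absence of the sequence, of mapped reads or of the mark cannot be told apart there.

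**Figure D4:**
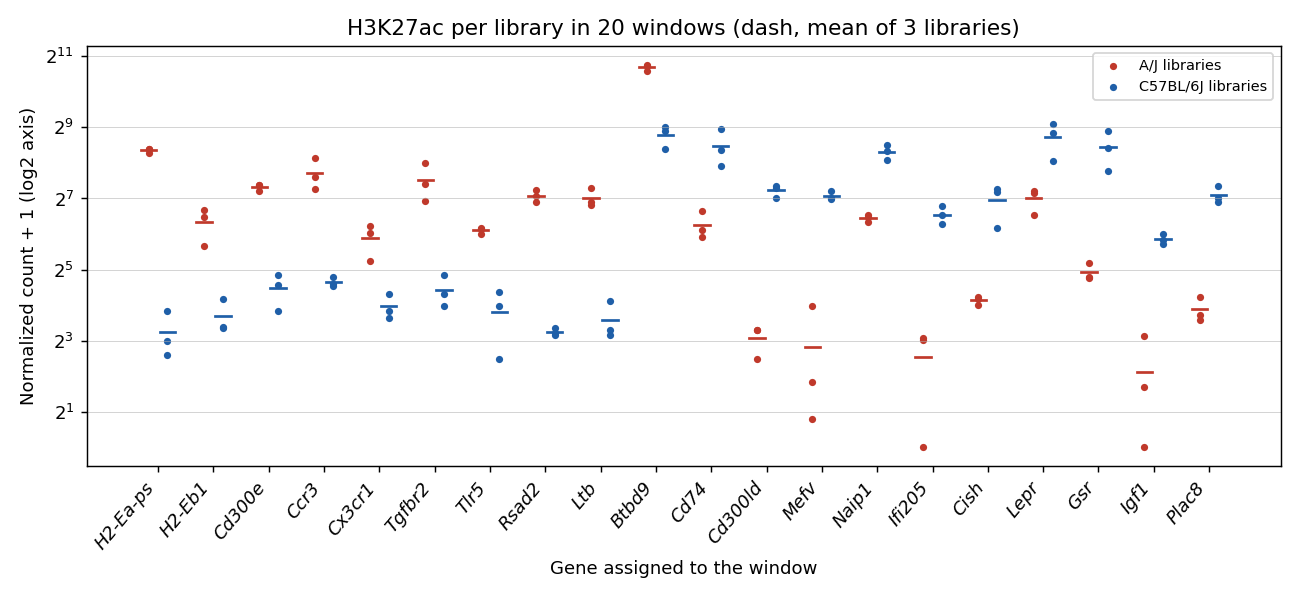
Normalized H3K27ac count plus 1 (log2 axis) of each A/J (red) and C57BL/6J (blue) library in 20 windows, named by the gene assigned to each; points are libraries and dashes the means of 3. The first 10 windows were higher in A/J, the last 10 higher in C57BL/6J, and in each of the 20 the points of one strain lie apart from those of the other.

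The called windows of MHC class II genes lay mainly at the class II locus. Class II molecules present peptides to CD4+ T cells. Of 159 tested windows of 15 such genes, 13 were called toward A/J and 4 toward C57BL/6J (10.7%, against 7.33% of all windows), and their median log2 fold change was -0.09 against -0.02 for all windows. *H2-Ea-ps*, the annotation's entry for the alpha chain of the E molecule, which C57BL/6 mice are known not to express, had 6 of 8 windows higher in A/J. The window 1691 bp upstream of it had 333, 338 and 311 in A/J and 13.3, 6.93 and 5.06 in C57BL/6J, a log2 fold change of 5.35 (SE 0.40, adjusted p = 1.2e-09 by edgeR), and its promoter window had means of 176 and 7.64. *H2-Eb1*, the beta chain of the same molecule, had 87.7, 50.0 and 102 against 9.34, 9.24 and 17.1 in a window 4885 bp upstream. *H2-Oa*, a chain of the modulator of peptide loading, had 85.4, 106 and 82.3 against 6.67, 11.5 and 17.1.

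The invariant chain gene *Cd74* went the other way. Its called window, in the first intron, had 99.4, 67.6 and 59.6 in A/J and 327, 238 and 494 in C57BL/6J, a log2 fold change of -2.22 (SE 0.27, adjusted p = 1.4e-06 by edgeR), and the other 9 windows of *Cd74* were not called. *H2-Ob*, the partner chain of *H2-Oa*, had 34.6, 85.2 and 36.3 against 115, 152 and 179. Of 73 windows of MHC class I genes, 1 was called in each direction. With 1 library left out at a time, including any of the 3 of A/J, these counts were between 0 and 2, and with the block they were 1 toward A/J and 0 toward C57BL/6J. At the class I gene *H2-T10*, which was outside that list, the promoter window had 26.5, 14.7 and 31.7 in A/J and 340.1, 180.1 and 394 in C57BL/6J. The A/J input there had 1 count where 60.6, scaled from 10 counts, would match C57BL/6J, so mapping and acetylation cannot be told apart. Elsewhere on chromosome 17, the promoter of the lymphotoxin gene *Ltb* had 156, 118 and 111 in A/J against 8.0, 16.2 and 8.85.

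Chemokine receptor windows were called mostly toward A/J. Of 120 windows of 14 receptor genes 15.8% were called, against 7.33% of all windows, with 16 toward A/J and 3 toward C57BL/6J, and leaving out each library in turn gave 12 to 19 higher in A/J. *Ccr3*, the eotaxin receptor, had 5 of 18 windows higher in A/J, and the intronic window printed above had 193, 153 and 279 against 26.7, 23.1 and 22.1, a log2 fold change of 3.15 (SE 0.29, adjusted p = 2.4e-08 by edgeR). *Cxcr4*, the receptor for CXCL12, had 4 of 15 higher in A/J. *Cx3cr1*, the fractalkine receptor of monocytes and many macrophages, had 3 of 7, and its promoter window had 64.1, 73.5 and 36.9 against 13.3, 11.5 and 19. *Ccrl2* lay in the same direction, with 249.7, 79.4 and 141 against 37.3, 32.3 and 17.1. *Cxcr5*, a receptor of follicular B cells, had 2 of 5 higher in C57BL/6J. *Ccr1* and *Ccr3* are neighbors on chromosome 9, and windows of 1 gene are not independent of each other.

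Among 126 windows of chemokine ligand genes, 6 were called toward A/J and 3 toward C57BL/6J (7.14%, near the 7.33% of all windows). Without C57BL/6J replicate 3 the 6 were 3, and the 3 were 1 without A/J replicate 1 or C57BL/6J replicate 1 and 5 without C57BL/6J replicate 2. *Cxcl1*, a neutrophil attractant, had 4 of 9 windows higher in A/J, and its promoter had 127, 50.0 and 82.9 against 22.7, 27.7 and 13.3. *Ccl4*, an attractant of monocytes and T cells, had 65.6, 70.5 and 68.0 against 20.0, 11.5 and 11.4 in its most changed window.

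Genes of Cd300, TREM and related receptors differed in both directions, also between neighbors in the Cd300 cluster on chromosome 11. These receptors of myeloid cells bind lipids and other ligands and signal through activating adaptors or inhibitory motifs. Of 173 windows of 21 such genes, on more than 1 chromosome, 9 were called toward A/J and 23 toward C57BL/6J (18.5% called, against 7.33% of all windows). *Cd300e*, an activating member, had 6 of 10 windows higher in A/J, and that in its first intron had 166, 147 and 165 against 22.7, 27.7 and 13.3, a log2 fold change of 3.04 (SE 0.30, adjusted p = 6.3e-08 by edgeR). *Cd300ld*, close to it on chromosome 11, had 5 of 5 higher in C57BL/6J. The window in its first intron had 8.84, 8.82 and 4.53 in A/J and 155, 129 and 163 in C57BL/6J, and *Cd300c2* had 6 of 7 in the same direction. The A/J input in the *Cd300ld* window had 18.5 counts where 60.6, scaled from the 1 C57BL/6J input library, would match C57BL/6J. The part of mapping in this difference was not tested. Outside that cluster, *Treml2* had 2 of 3 windows and *Sirpb1b*, on chromosome 3, had 2 of 4 higher in C57BL/6J. At *Trem2*, a lipid receptor of macrophages, neither the window of lowest p (36.8 and 53.2, adjusted p = 0.193 by edgeR) nor the promoter window (28.9 and 40.0, adjusted p = 0.557 by edgeR) passed the test.

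Genes of the Ifi200 and Aim2 cluster on chromosome 1, interferon-induced DNA-binding proteins, had 12 of 58 windows higher in C57BL/6J and 4 higher in A/J (27.6% called, against 7.33% of all windows). *Ifi205* had 7.37, 0 and 7.13 at its promoter in A/J and 92.0, 76.2 and 109 in C57BL/6J, and *Ifi203* had 30.2, 17.6 and 27.2 against 92.0, 99.3 and 122. *Ifi202b* had all 3 of its windows higher in A/J, with 32.4, 47.0 and 27.2 against 6.67, 6.93 and 6.32 in the most changed. The count of 4 higher in A/J fell to 2 without A/J replicate 1, and to 1 without A/J replicate 3 or without C57BL/6J replicate 3. The members of this family are close copies of each other, so reads may be split between them. Among windows with similar input in both strains, which are fewer, 1 was called toward A/J and 3 toward C57BL/6J. In the cluster of *Trim5*, *Trim12*, *Trim30* and *Trim34* genes, antiviral factors that are also close copies, 6 of 31 windows were higher in C57BL/6J (25.8% called in both directions). Of the 6, 3 were at *Trim5* and 1 at *Trim12a*, where A/J had summed counts of 2.18 and 0. The A/J input had no count at *Trim12a* and in the 2 intronic windows of *Trim5*, so a missing or unmapped sequence and a missing mark cannot be told apart. The 2 higher in A/J, both at *Trim30d*, fell to 1 without A/J replicate 3, and its most changed window had 110.5, 97.0 and 113 against 4.00, 4.62 and 7.58. Among windows of the Trim cluster with similar input, 1 was called toward A/J and 2 toward C57BL/6J.

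Inflammasome genes, which sense microbes and activate caspase-1, had 12 of 102 windows higher in C57BL/6J and 3 higher in A/J (14.7% called, against 7.33% of all windows). *Mefv*, the gene of pyrin, had 4 of 4 windows higher in C57BL/6J, and its promoter had 0.737, 14.7 and 2.59 in A/J and 128, 148 and 125 in C57BL/6J, a log2 fold change of -5.29 (SE 0.48, adjusted p = 2.0e-08 by edgeR). *Naip1*, a sensor of bacterial secretion needles, had 5 of 9, with 79.6, 91.1 and 88.7 against 268, 321 and 363 near its start site. *Naip2*, a related sensor, had 24.3, 29.4 and 38.2 against 115, 73.9 and 111. *Nlrc4*, the adaptor that NAIP proteins engage, was the other way in 1 of 13 windows, with 31.7, 70.5 and 42.8 against 13.3, 0 and 5.69. The 3 windows higher in A/J fell to 1 without A/J replicate 1, A/J replicate 3, C57BL/6J replicate 1 or C57BL/6J replicate 3. The Naip genes are also close copies.

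Toll-like receptor and NF-κB genes had 14 of 365 windows toward A/J and 6 higher in C57BL/6J (5.48% called, below the 7.33% of all windows). With the replicate number as a block these were 18 and 14. *Tlr5*, the flagellin receptor, held 7 of the 14, and its promoter had 63.4, 70.5 and 69.3 in A/J against 14.7, 4.62 and 19.6 (log2 fold change 2.18, SE 0.35, adjusted p = 8.8e-05 by edgeR). *Tlr4*, the receptor for lipopolysaccharide, held 4, with 44.2, 52.9 and 53.1 against 16, 20.8 and 11.4 in a window 35205 bp upstream. *Cd40*, a costimulatory receptor, had 3 of 7 windows higher in C57BL/6J. The count toward A/J was 9 without A/J replicate 1 and 9 without C57BL/6J replicate 3, and that toward C57BL/6J was 3 without the latter.

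Of 401 windows of interferon response genes, 11 were called toward A/J and 16 toward C57BL/6J (9 without C57BL/6J replicate 3). The share called was 6.73%, near the 7.33% of all windows. *Rsad2*, the gene of the antiviral enzyme viperin, had 7 of 13 higher in A/J, with 119, 132 and 150.3 against 8.0, 9.24 and 8.21 at a window 17542 bp from its start. *Ifngr2*, a chain of the interferon-γ receptor, had 4 of 14 higher in C57BL/6J, with 48.6, 29.4 and 44.0 against 147, 125 and 174. *Dhx58*, an RNA sensor, had 6.63, 11.8 and 7.77 against 56.0, 37.0 and 66.3. *Tnfsf10*, the gene of the death ligand TRAIL, had 6 of 15 windows higher in C57BL/6J. It is one of the cytokine and growth factor genes, of whose 271 windows 5 were called toward A/J (8 with the block) and 11 toward C57BL/6J, 5.90% against 7.33% of all windows. The strongest window of the growth factor gene *Igf1* had 2.21, 0 and 7.77 against 56.0, 62.4 and 51.2. Those 11 were 7 without A/J replicate 1 and 5 without C57BL/6J replicate 3, and the 5 were 2, 2, 2 and 0 without A/J replicates 1 and 3 and C57BL/6J replicates 1 and 3.

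Kupffer cell identity genes, which set these cells apart from other macrophages, had 36 of 594 windows higher in C57BL/6J and 6 higher in A/J, and the median log2 fold change was -0.14. The share called, 7.07%, was near the 7.33% of all windows. *Kcna2* held 17 of the 36 and *Cd5l*, a secreted scavenger protein, held 10. The remaining 9 lay at *Pcolce2*, *C6*, *Cdh5* and *Id3*. The *Cd5l* window printed above had 8.10, 2.94 and 13.6 in A/J and 131, 157 and 159 in C57BL/6J. The 36 were 22 without C57BL/6J replicate 3. *Clec4f*, a galactose-binding lectin restricted to Kupffer cells, had 2 of 26 windows higher in A/J, one with 56.0, 99.9 and 81.6 against 17.3, 9.24 and 1.26, while its start-site window was not called (log2 fold change -0.59, adjusted p = 0.138 by edgeR).

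Signals of the hepatic niche act through TGF-β, BMP and Notch receptors. Their genes had 16 of 279 windows toward A/J and 6 higher in C57BL/6J (7.89% called, near the 7.33% of all windows). *Tgfbr2*, the ligand-binding TGF-β receptor, held 11 of the 16, and its intronic window printed above had 169, 121 and 253 in A/J and 14.7, 27.7 and 19 in C57BL/6J, a log2 fold change of 3.24 (SE 0.32, adjusted p = 6.1e-08 by edgeR). The inhibitory genes *Smad6*, *Smad7* and *Skil* had 4 windows higher in C57BL/6J between them and *Id3* had 2. The count of 16 was 10 without A/J replicate 1, 10 without A/J replicate 3 and 9 without C57BL/6J replicate 3. The count of 6 was 2, 3 and 3 without A/J replicates 1, 2 and 3, and 3 and 1 without C57BL/6J replicates 1 and 3. It was 1 with overlapping windows left out, 1 among windows with similar input, and 3 with library totals or DESeq2.

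Leptin receptor, STAT and SOCS genes had 8 of 195 windows higher in C57BL/6J (5 without its replicate 3) and 1 higher in A/J (2 with the block), 4.62% called against 7.33% of all windows. *Lepr*, the receptor of the adipose hormone leptin, had 5 of 9 higher in C57BL/6J. The intronic window printed above had 141, 91.1 and 147 in A/J and 459, 263 and 548 in C57BL/6J, a log2 fold change of -1.71 (SE 0.26, adjusted p = 3.1e-05 by edgeR). *Cish*, a cytokine-induced inhibitor of STAT signaling, had 16.9, 17.6 and 14.9 against 153, 71.6 and 145.

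Of the windows of LXR targets and sterol synthesis genes 5.65% were called, below the 7.33% of all windows, 13 of 283 toward C57BL/6J and 3 toward A/J, with 4 of the 13 at the cholesterol exporter gene *Abca1*. Without A/J replicate 1, C57BL/6J replicate 1 or C57BL/6J replicate 3 the 13 were 6, 7 and 3, and without the last the 3 were 0. *Insig2*, a retention factor of the sterol sensor, had 9.58, 5.88 and 11.7 in A/J and 46.7, 43.9 and 41.7 in C57BL/6J. Genes of lipid-associated macrophages had 6 windows toward A/J and 14 higher in C57BL/6J of 213 (9.39% called, against 7.33% of all windows). *Lgals3*, the gene of galectin-3, had 2 and 3, with 116, 94.1 and 148 against 381, 335 and 509 at 11975 bp upstream and 70.7, 94.1 and 73.8 against 10.7, 18.5 and 7.58 at 15727 bp upstream. The 14 were 9 without A/J replicate 1 and 8 without C57BL/6J replicate 3, and the 6 were 3 without A/J replicate 3.

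Transcription factor genes had shares of called windows below that of all windows, 3.12% for AP-1, ATF and C/EBP genes and 3.97% for MAF, MITF/TFE and ETS genes. The former had 9 of 320 windows toward A/J, 4 at *Batf3* and 2 at *Jun*, and 1 toward C57BL/6J. With the block the counts were 14 and 2, and the 9 were 4, 2 and 5 without A/J replicate 1, A/J replicate 3 and C57BL/6J replicate 1. The latter had 9 of 302 higher in A/J, all at *Elk3* and *Etv3*, and 3 higher in C57BL/6J (1 without A/J replicate 3, 5 with the block). Shares were also low for lysosome genes, with 4 of 315 windows toward A/J and 6 toward C57BL/6J, scavenger receptors, with 7 and 1 of 303, and complement genes, with 0 and 3 of 90. Housekeeping genes had 1 in each direction of 131, and 0 to 2 in a direction with each library left out. With the block these pairs were 7 and 8, 11 and 3, 0 and 4, and 5 and 1. The lowest sums came without C57BL/6J replicate 3 for lysosome genes (2 and 3) and scavenger receptors (3 and 1) and without A/J replicate 1 for complement genes (0 and 1, but 0 and 5 without A/J replicate 3), and the highest without C57BL/6J replicate 2 for lysosome genes (3 and 11) and scavenger receptors (8 and 4). Without A/J replicate 3 scavenger receptors had 4 toward A/J and 5 toward C57BL/6J. C-type lectins had 8 of 134 toward A/J and 2 toward C57BL/6J (7.46% called, near the 7.33% of all windows). They had 2 and 1 without C57BL/6J replicate 3 and 4 and 0 without A/J replicate 3. Of the 8, 4 were at *Colec12*, and these 4 are also among the 7 of scavenger receptors. Iron genes had 2 and 7 of 178 (5.06% called), of which 6 were at *Hfe2*, 4 toward A/J with the block, and with 12 toward C57BL/6J without its replicate 2 and 4 without A/J replicate 1 or C57BL/6J replicate 3. In 2 of the 6 *Hfe2* windows A/J had no H3K27ac count, and in 1 of these the A/J input had 0.5 counts, so sequence and mark cannot be told apart there. Fc receptor genes had 1 and 3 of 51 (7.84% called, near the share of all windows), and 6 toward C57BL/6J without its replicate 2.

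**Figure D5:**
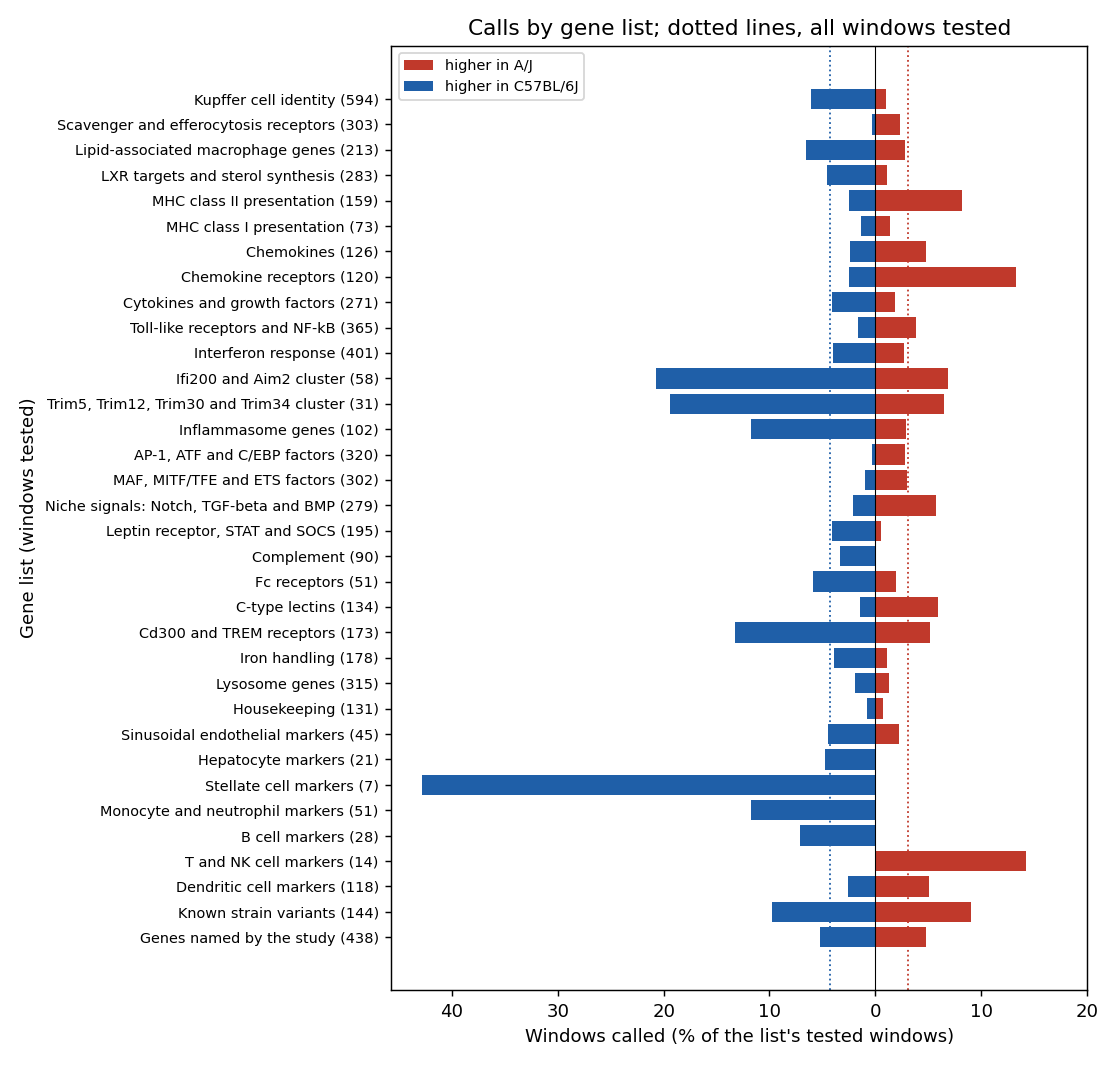
Percent of tested windows called toward A/J (red, right) and C57BL/6J (blue, left) for 34 gene lists, with the number of windows tested in parentheses; dotted lines mark the shares over all windows, 3.10% and 4.24%. Chemokine receptors, MHC class II genes and T and NK cell genes, the last on 14 windows, are among the lists past the line toward A/J. The Ifi200 list, the Trim list and the list of Cd300 and TREM receptors reach past both lines. Inflammasome and monocyte genes are among those past the line toward C57BL/6J, and the stellate cell bar rests on 7 windows.

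Several genes known to vary between inbred strains were among the called windows. Of 144 windows of such genes, 13 were higher in A/J (8 without C57BL/6J replicate 3) and 14 higher in C57BL/6J (18.8% called, against 7.33% of all windows). *Glo1*, which detoxifies methylglyoxal, had 275, 273 and 332 at its promoter in A/J and 93.4, 83.1 and 73.3 in C57BL/6J, a log2 fold change of 1.83 (SE 0.23, adjusted p = 1.9e-06 by edgeR). Next to it, the promoter of *Btbd9* had 1537, 1728 and 1689 against 513, 333 and 478, and the A/J input had 110 counts where 45.4, scaled from 7.5 counts, would match the C57BL/6J input. At *Glo1* the input matched, with 83.5 counts and 81.8 expected. The part of copy number in these differences was not tested. *Nnt*, of which C57BL/6J mice carry a deletion, had means of 49.5 in A/J and 64 in C57BL/6J at its promoter and no called window (adjusted p = 0.503 there by edgeR). The genes that the study itself discusses, which it chose on samples of these strains and which are thus not independent evidence, had 21 of 438 windows toward A/J and 23 higher in C57BL/6J, 10.0% called against 7.33% of all windows, and 13 and 15 without C57BL/6J replicate 3. *App* had 61.1, 58.8 and 70.0 against 18.7, 25.4 and 8.85 in an intron, and *Adam17*, a protease that sheds cytokines and receptors, had 5 of 10 windows higher in C57BL/6J.

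Windows of genes of other cell types were also acetylated, and some differed. Monocyte and neutrophil genes had 6 of 51 windows higher in C57BL/6J and none higher in A/J (11.8% called, against 7.33% of all windows). The 6 were 10 with the block, and 3 without C57BL/6J replicate 1 or replicate 3. Their median log2 fold change was -0.56. Their summed normalized count was 3615 to 4765 in A/J and 5225 to 5851 in C57BL/6J, which do not overlap. *Plac8*, a monocyte gene, held 5 of the 6, with 11, 17.6 and 12.3 against 128, 118 and 161 in an intron. Stellate cell genes had 3 of 7 windows (42.9%) higher in C57BL/6J, with summed counts of 284 to 335 and 595 to 702, although the start sites of *Lrat* and *Des* had no window. At *Acta2* the counts were 5.16, 11.8 and 5.18 against 76.0, 57.7 and 77.1. Sinusoidal endothelial genes summed to 3443 to 3495 in A/J and 2934 to 3421 in C57BL/6J, hepatocyte genes to 1244 to 1367 and 1289 to 1484, B cell genes to 1805 to 2276 and 1769 to 2179, T and NK cell genes to 1117 to 1288 and 901 to 1259, and dendritic cell genes to 10832 to 12403 and 10076 to 13255. The windows called toward A/J and toward C57BL/6J were 1 and 2 of 45 for endothelial genes (6.67%, 3 and 2 with the block) and 0 and 1 of 21 for hepatocyte genes (4.76%, 0 and 2 with the block). They were 0 and 2 of 28 for B cell genes (7.14%), 2 and 0 of 14 for T and NK cell genes (14.3%) and 6 and 3 of 118 for dendritic cell genes (7.63%). The endothelial, B cell and dendritic cell shares were near the 7.33% of all windows. No B cell window was called without A/J replicate 1 or 3, without C57BL/6J replicate 1 or 3, or with library totals alone. Dendritic cell genes had 3 and 3 without A/J replicate 3 or without C57BL/6J replicate 1. They had 3 and 2 without C57BL/6J replicate 3, and 5 and 7 without C57BL/6J replicate 2. More acetylation per cell and more cells of another type cannot be told apart in these sorted samples, and the part of such cells in the differences above was not tested.

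Motif matches were counted in the central 200 bases of windows outside promoters. The consensus letters were searched on both strands of the reference, which is the C57BL/6J sequence and holds no A/J variant. AP-1 (TGANTCA) matched in 15.8% of 1662 windows higher in A/J, 14.3% of 2292 higher in C57BL/6J and 13.6% of all 46642. PU.1 (GAGGAAGT) matched in 8.18%, 8.86% and 9.18%, and the MAF letters (TGCTGAC), which can overlap AP-1, in 6.32%, 6.98% and 5.96%. The C/EBP letters (TTGCNNAA) were in 11.7%, 12.3% and 12.1%, the IRF motif in 4.87%, 5.45% and 5.36%, and the NF-κB motif in 0.542%, 0.698% and 0.652%. The composite of PU.1 and IRF, which can overlap both of its parts, was in 2.53%, 3.05% and 2.77%, the MITF/TFE E-box (TCACGTGA) in 0.301%, 0.436% and 0.349% and NFIL3 (TTACGTAA) in 0.241%, 0.131% and 0.146%. The RBPJ letters (TGGGAA), those of the Notch effector, were in 20.5%, 18.4% and 19.3%. They were not capitalized in the sequences above. Median GC content was 48.5%, 48.0% and 48.5%. A match is a description of the letters and not evidence of binding.

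Fewer windows were called against BALB/cJ in A/J than in C57BL/6J. In the same 58794 windows, the fit called 2007 (3.41%) for A/J against BALB/cJ and 4888 (8.31%) for BALB/cJ against C57BL/6J, and these comparisons share libraries with that of A/J and C57BL/6J. Reads of A/J and BALB/cJ were mapped to mm10 carrying variants of the strain, and those of C57BL/6J to mm10 itself. The part of mapping in these counts was not tested. The BALB/cJ mean was 241 at the *Ccr3* window, 163 at *Tgfbr2* and 124 at *Rsad2*, with A/J means above 100 at each. It was 15.0 at *Cd300e* and 6.75 at *Myo10*, near the C57BL/6J values. At *H2-Ea-ps* it was 44.5, between the values of the other strains, and at *Cd300ld* it was 108.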

How the data were processed

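Windows were compared in 3 A/J and 3 C57BL/6J H3K27ac libraries of Kupffer cells. According to the study's methods, the authors mapped reads with Bowtie2 to strain genomes (mm10 carrying A/J variants for A/J), shifted them to mm10 with MMARGE and counted tags with HOMER in 1000-bp windows around merged ATAC-seq peaks. They state that larger structural variants of A/J and BALB/cJ were left out of these genomes, and mm10 itself served for C57BL/6J. Their deposited counts are raw for replicates 1 and 3. Replicate 2 and the ChIP inputs were deposited by the authors as values in steps of 0.5, here handled like expected counts. How the fractions arose is not given in the sources used here. H3K27ac values were rounded for the fit. Versions of these tools are not given in the sources used here.

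edgeR 4.0.16 (R 4.3.3, quasi-likelihood, robust, TMM) fitted the 9 libraries with 1 coefficient for each of the 3 strains, on autosomal windows with a mean normalized count over 16 in the 6 libraries. Normalized counts are counts per effective library size times the mean effective size (7178144). Called windows passed 0.05 after adjustment and 1 in absolute log2 fold change. The SE divides the size of the log2 fold change by the square root of F. Windows just outside the level limit were at *2610020C07Rik*, *Klf4* and *Meltf* and just inside at *Rpl5*, *9130230L23Rik* and *Nras*. The scripts were tested on simulated data. Genes are those the table assigns to windows.

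Same-numbered libraries of the strains correlated after removal of strain means (0.252 to 0.415 in 9 pairs). The main fit did not use this pairing, so its calls, SEs and p-values ignore it. A fit with the replicate number as a block is given where it changed a call or moved a count of calls by over 1.5 times. The windows, the 34 gene lists and the naming rule were chosen with earlier results of these data known. The rule named 273 windows: the largest changes with a mean of at least 100, promoters, the highest counts, genes and runs with the most calls, list members by adjusted p, and the genes the study discusses. Except for windows taken from the gene lists, the libraries of A/J and C57BL/6J were not allowed to overlap. The 6 sequences, the bins, the motifs and the windows plotted per library were chosen after the values were seen. Allelic counts of hybrid mice were not used here.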

Additional observations from a re-analysis of the deposited data

How the results depend on the processing

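A minimum mean count of 32 left 45500 windows and 2715 calls, 1057 higher in A/J and 1658 higher in C57BL/6J. Leaving out 1 library at a time gave 2869 to 5025 calls, 1263 to 2180 higher in A/J and 1606 to 2845 higher in C57BL/6J, and the lowest were without C57BL/6J replicate 3. The other settings tried for the counts stayed within 1.5 times: DESeq2 gave 3976 calls, library totals 4012, DESeq2 size factors 4313, no filter 5131, the 6 libraries alone 4328, unrounded values 4320, no overlapping windows 3321, windows with similar input 2993, and sex chromosomes included 4338. The replicate block gave 5275 calls, 2312 and 2963, and 4288 of them were calls without it. Among the 273 named windows it ended the calls at *B2m* and *Etv6*, added 5, and changed no other call. Of 196 named windows called, 139 kept the call under all 13 alternatives tried for single windows, 57 lost it when some library was left out, 5 lost it under DESeq2, and none changed direction in a fit where it was called. Depth in replicate 2 of each strain limits the precision at low counts.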
